A study of Homo sapiens with 8 samples.

Results

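The genes described here encode the proteins of the cytosolic ribosome and their close paralogs. They are the protein-coding genes named RPL or RPS with a number (with or without a letter A, X or L), RPLP0 to RPLP2 and RPSA, and the rule found 84 of the 61533 genes in the count tables. Of these, 46 encode proteins of the large (60S) subunit, 31 of the small (40S) subunit, and 7 are paralogs: RPL3L, RPL7L1, RPL10L, RPL22L1, RPL26L1, RPL39L and RPS27L. The rule used names and no measured value. RNA was measured in 2 human squamous carcinoma lines, A431 (epidermoid carcinoma) and CAL27 (squamous cell carcinoma of the tongue). Each line was treated for 16 h with an inhibitor of the NEDD8 pathway, which the labels call NEDD8i, or with DMSO, a solvent control. The groups were A431 NEDD8i, A431 DMSO, CAL27 NEDD8i and CAL27 DMSO, with 2 libraries each, and the labels name no genetic change in any of them. The labels give neither a compound name nor a dose for the inhibitor. They also do not say whether replicate libraries stem from independent cultures, and every p-value below therefore reflects library-to-library spread, which may be technical.

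Ribosomal proteins assemble with ribosomal RNA in the nucleolus, and most are made in equal amounts and are degraded when not built into a subunit. Their mRNAs are among the most abundant in a growing cell. Most of these mRNAs start with a cytosine followed by an unbroken run of pyrimidines, the terminal oligopyrimidine (TOP) tract, through which the protein LARP1 and the kinase mTOR control their translation and stability together. Free RPL5 and RPL11, which form the 5S ribonucleoprotein with 5S ribosomal RNA, bind the ubiquitin ligase MDM2 when ribosome assembly is disturbed. NEDD8 is a ubiquitin-like protein whose best known targets are the cullins, the scaffolds of a large ubiquitin ligase family, and RPL11 and RPS14 are also known to be modified by it. The comparison within each line asks what blocking that pathway does to the mRNA levels of these genes.

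The libraries were 3' tag libraries of 49037868 to 62509817 counts, in which reads come from the 3' end of polyadenylated RNA. Levels are in CPM, the count scaled to library size with TMM factors. In a principal component analysis of log2 CPM the lines parted on component 1 (62.8% of variance) and the treatments on component 2 (19.6%). All 10 epithelial markers were detected in every library, with sums of 9910.3 to 16781 CPM. Of 14 markers of leukocytes, endothelium, fibroblasts and melanocytes, 4 to 7 were at 0 counts in a library, PTPRC and CD68 in all 8. The markers of other cells summed to 26.3 and 25.6 CPM in the A431 NEDD8i libraries, against 63.9 and 57.2 CPM in the A431 DMSO libraries. In CAL27 they summed to 18.6 and 22.1 CPM under NEDD8i and to 27.6 and 30.8 CPM under DMSO. In bulk libraries fewer cells that express a gene and less of its RNA per cell cannot be told apart.

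The start sites of the members that the results turn on show where the TOP tract stands. Each window holds 25 bases before and 25 from an annotated RefSeq start (GRCh38.p14), on the gene's own strand and 5′ to 3′. Capitals mark a C at the start followed without a break by at least 4 more C or T. The first 5 are paralogs and the canonical genes of 2 of them. The others are RPL14, members with large changes in 1 or both lines, and RPL11 of the 5S ribonucleoprotein. RPL14 was the only canonical protein gene to rise in A431.
RPS27L: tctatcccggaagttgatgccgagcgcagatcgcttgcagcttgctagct
RPS27: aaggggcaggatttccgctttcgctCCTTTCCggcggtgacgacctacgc
RPL22L1: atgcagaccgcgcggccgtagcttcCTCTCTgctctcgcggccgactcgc
RPL22: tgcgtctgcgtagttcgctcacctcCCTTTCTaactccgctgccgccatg
RPL7L1: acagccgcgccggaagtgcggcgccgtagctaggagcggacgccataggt
RPL14: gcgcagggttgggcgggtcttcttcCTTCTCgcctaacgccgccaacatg
RPS26: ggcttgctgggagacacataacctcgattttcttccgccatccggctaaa
RPS25: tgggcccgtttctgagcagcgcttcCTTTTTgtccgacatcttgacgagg
RPL3: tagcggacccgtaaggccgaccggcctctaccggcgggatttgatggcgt
RPL10A: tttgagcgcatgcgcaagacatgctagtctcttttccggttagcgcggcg
RPS21: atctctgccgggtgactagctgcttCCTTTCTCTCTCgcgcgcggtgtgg
RPL18: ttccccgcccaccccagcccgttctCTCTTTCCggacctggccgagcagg
RPL11: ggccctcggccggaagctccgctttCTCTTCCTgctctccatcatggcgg

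The windows lie at chr15:63157453-63157502 (minus strand) for RPS27L, chr1:153990737-153990786 (plus strand) for RPS27, chr3:170870171-170870220 (minus strand) for RPL22L1, chr1:6199571-6199620 (minus strand) for RPL22, chr6:42879591-42879640 (plus strand) for RPL7L1, chr3:40457314-40457363 (plus strand) for RPL14, chr12:56041893-56041942 (plus strand) for RPS26, chr11:119018319-119018368 (minus strand) for RPS25, chr22:39319599-39319648 (minus strand) for RPL3, chr6:35468376-35468425 (plus strand) for RPL10A, chr20:62387078-62387127 (plus strand) for RPS21, chr19:48619154-48619203 (minus strand) for RPL18 and chr1:23691781-23691830 (plus strand) for RPL11. Of the 84 members, 67 were in the table of starts, and 47 of these (70.1%) had such a tract at 1 of their annotated starts, against 1404 of all 27305 genes in the table (5.14%). Tracts were 5 to 19 bases long, with the longest in RPL39. Among the windows shown, RPS27 and RPL22 carry the tract, and so does RPL22L1, the only 1 of 5 paralogs in the table to do so, while RPS27L and RPL7L1 do not. RPL3, with a C and 3 pyrimidines at its start, falls just short of the length asked for. A window without capitals says only that these letters do not stand at the starts RefSeq annotates.

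Ribosomal protein genes took a smaller part of the counts under NEDD8i in A431 and a slightly larger part in CAL27. They held 4.63% and 4.62% of all gene counts in the A431 NEDD8i libraries, against 5.71% and 5.57% in the A431 DMSO libraries. In CAL27 they held 6.33% and 6.38% under NEDD8i, against 6.14% and 6.26% under DMSO. The groups did not overlap in either line, and the gap was wide in A431 and narrow in CAL27. Group means ± SD (n = 2) were 4.62% ± 0.00712 in A431 NEDD8i, 5.64% ± 0.0983 in A431 DMSO, 6.36% ± 0.0409 in CAL27 NEDD8i and 6.20% ± 0.0823 in CAL27 DMSO. With 2 libraries a group an exact two-sided permutation test cannot go below p = 0.333, so the shares are given as a description.

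The large subunit genes held 2.65% and 2.64% of the counts in the A431 NEDD8i libraries, against 3.32% and 3.24% in the A431 DMSO libraries. The small subunit genes held 1.94% and 1.94% under NEDD8i, against 2.35% and 2.29% under DMSO. In CAL27 the large subunit share was 3.72% and 3.67% under NEDD8i and 3.64% and 3.70% under DMSO, which overlapped, and the small subunit share was 2.57% and 2.68% under NEDD8i and 2.47% and 2.52% under DMSO, which did not. Transcripts of the mitochondrial genome moved with the treatment too. They held 1.96% and 2.27% of the counts in the A431 NEDD8i libraries, against 2.69% and 3.15% in the A431 DMSO libraries. In CAL27 they held 1.45% and 1.02% under NEDD8i, against 1.77% and 1.56% under DMSO. With those transcripts left out of the total, the ribosomal protein genes held 4.72% in A431 NEDD8i, 5.81% in A431 DMSO, 6.43% in CAL27 NEDD8i and 6.31% in CAL27 DMSO (means of 2 libraries), so the difference within A431 was still there.

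**Figure D1:**
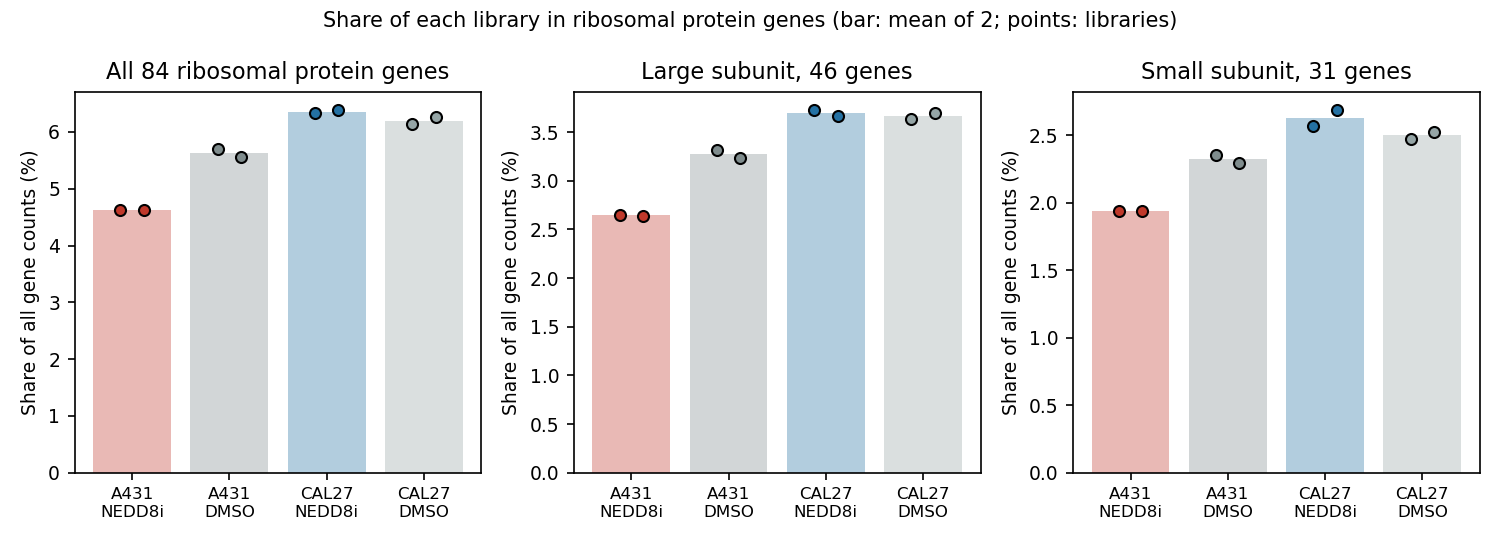
Share of each library's gene counts (%, vertical axes from 0) in all 84 ribosomal protein genes, in the 46 large subunit genes and in the 31 small subunit genes; bars are means of 2 libraries and points are libraries. The A431 NEDD8i libraries sit at 4.63% and 4.62% for all members, below the A431 DMSO libraries at 5.71% and 5.57%, while both CAL27 groups lie between 6.14% and 6.38%.

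Most ribosomal protein genes fell in A431 under NEDD8i, by small amounts. Of the 83 members tested, 50 fell and 3 rose at an edgeR adjusted p under 0.05, over a background of 21.1% of all 18738 genes tested that fell and 22.5% that rose. The median log2 fold change of the members was -0.17, beside -0.01 over all genes tested. The spread among members was narrow, with the quartiles of the log2 changes at -0.28 and -0.04. Of the 50 that fell, 21 were at least 1.2-fold lower, and only RPS27L and RPS26 were at least 1.5-fold lower. In 61 members both NEDD8i libraries were below both DMSO libraries, in 11 both were above and in 11 the groups overlapped, beside 34.6% below and 32.9% above over all genes tested. With 2 against 2 libraries, such a split by itself is common.

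The fall took in both subunits. Of 46 large subunit genes 31 fell and RPL14 rose, with a median log2 fold change of -0.18. Of 31 small subunit genes 18 fell and 0 rose, with a median of -0.16. The 6 tested paralogs moved apart: RPS27L fell, RPL22L1 and RPL7L1 rose, and RPL26L1, RPL39L and RPL3L were not called. Without scaling factors, which shifts the median of all genes by -0.10, 65 members fell and 1 rose, with a median of -0.27. With upper-quartile scaling 58 fell and 3 rose. Of all genes tested, 26.0% fell and 18.5% rose without factors, and 24.3% fell and 19.8% rose with upper-quartile scaling.

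The largest fall was that of RPS27L, a paralog of the small subunit protein RPS27. RPS27L had 8.27 and 8.70 CPM in the A431 NEDD8i libraries, against 19.9 and 22.1 CPM in the A431 DMSO libraries. The groups were far apart, and RPS27L was 2.47-fold lower, with a log2 fold change of -1.31 ± 0.14 (edgeR adjusted p = 5.4e-07). In this text ± after a log2 change is an approximate standard error from the fit. RPS27, the canonical gene, had 304 and 321 CPM in the A431 NEDD8i libraries, against 427 and 434 CPM in the A431 DMSO libraries, and fell by 0.46 ± 0.10 on the log2 scale (edgeR adjusted p = 0.000929). RPS26, a small subunit protein at the exit of the mRNA channel, had 152 and 152 CPM in the A431 NEDD8i libraries, against 243 and 236 CPM in the A431 DMSO libraries. Its libraries agreed closely within each group, and it fell 1.58-fold, with a log2 change of -0.66 ± 0.05 (edgeR adjusted p = 2.93e-09). RPS25, a small subunit protein needed for translation from some viral internal entry sites, had 177 and 179 CPM in the A431 NEDD8i libraries, against 243 and 246 CPM in the A431 DMSO libraries, without overlap, and a log2 change of -0.46 ± 0.04 (edgeR adjusted p = 2.17e-07). RPS29, a zinc-binding protein of the small subunit head, had 207 and 243 CPM in the A431 NEDD8i libraries, against 287 and 316 CPM in the A431 DMSO libraries, a log2 change of -0.42 ± 0.06 (edgeR adjusted p = 3.88e-05).

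Of the large subunit, RPL3, which lies next to the peptidyl transferase centre, had 1055 and 1042 CPM in the A431 NEDD8i libraries, against 1529 and 1522 CPM in the A431 DMSO libraries. The 2 libraries of each group were nearly equal, and RPL3 changed by -0.54 ± 0.03 (edgeR adjusted p = 6.26e-10) on the log2 scale, a 1.46-fold fall. RPL41, which encodes a very short peptide of the large subunit, had 377 and 391 CPM in the A431 NEDD8i libraries, against 539 and 519 CPM in the A431 DMSO libraries, a log2 change of -0.46 ± 0.04 (edgeR adjusted p = 9.71e-08). RPL13, a surface protein of the large subunit, had 848 and 814 CPM in the A431 NEDD8i libraries, against 1131 and 1059 CPM in the A431 DMSO libraries, a log2 change of -0.40 ± 0.05 (edgeR adjusted p = 8.38e-06). For both genes every NEDD8i library lay below every DMSO library. Only 3 members rose. RPL22L1, a paralog of RPL22, had 32.1 and 35.2 CPM in the A431 NEDD8i libraries, against 25 and 23.2 CPM in the A431 DMSO libraries, a log2 change of 0.48 ± 0.09 (edgeR adjusted p = 0.000258). RPL7L1, a nucleolar paralog of RPL7, had 281 and 308 CPM in the A431 NEDD8i libraries, against 247 and 259 CPM in the A431 DMSO libraries, a log2 change of 0.22 ± 0.05 (edgeR adjusted p = 0.00297). RPL14, the only canonical protein gene to rise, had 498 and 496 CPM in the A431 NEDD8i libraries, against 441 and 426 CPM in the A431 DMSO libraries, a log2 change of 0.20 ± 0.05 (edgeR adjusted p = 0.00396). The groups did not overlap for any of the 3. Without scaling factors RPL7L1 and RPL14 were not called (edgeR adjusted p = 0.0868 and 0.123), and neither was RPL7L1 without the A431 NEDD8i library 2 (edgeR adjusted p = 0.0769).

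**Figure D2:**
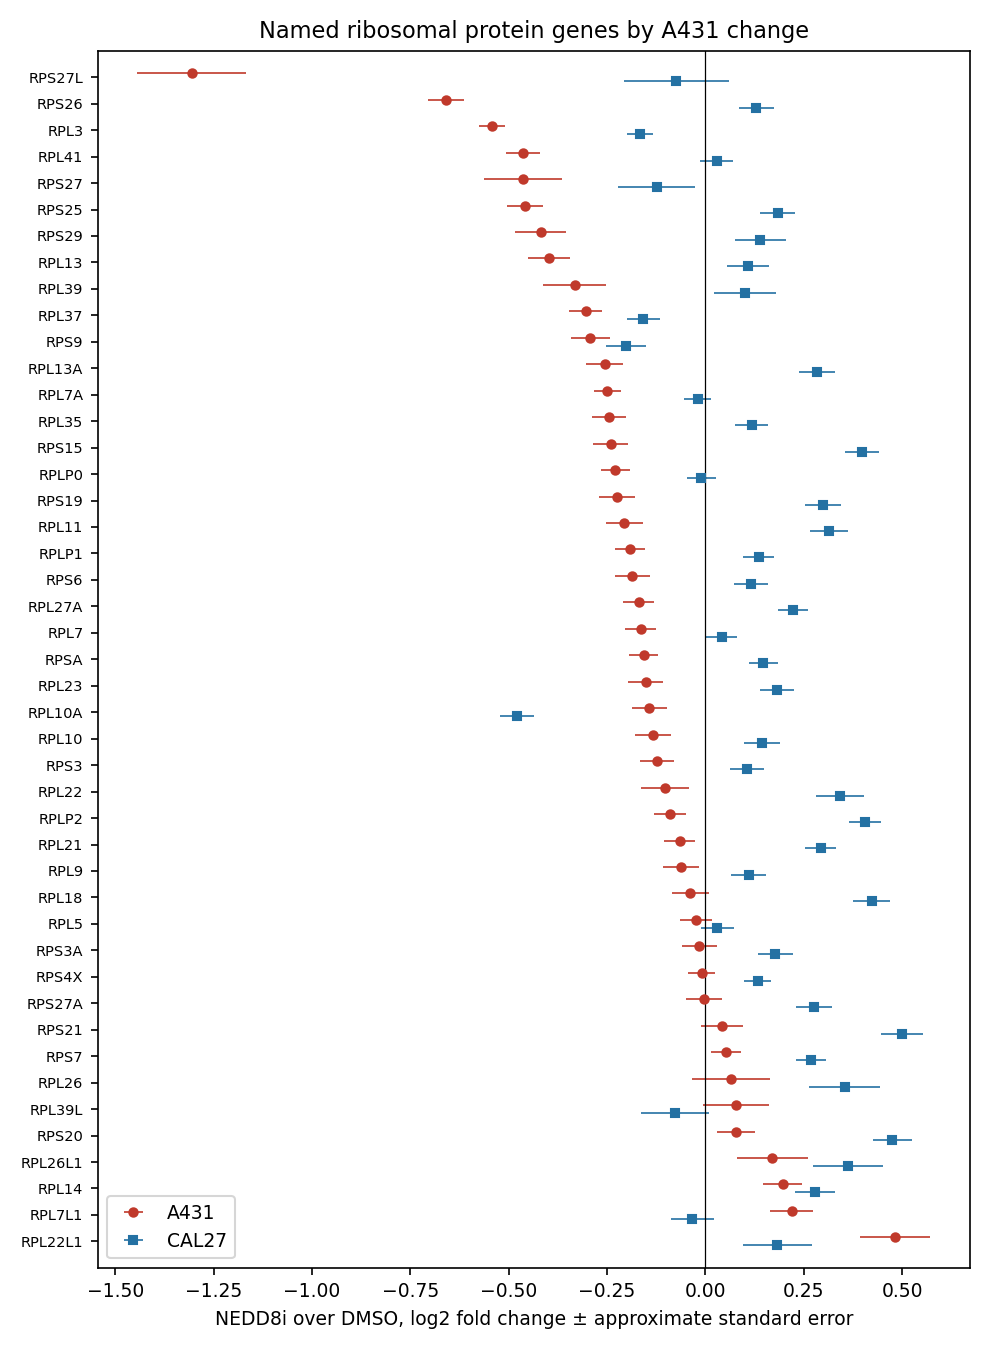
Log2 fold change of NEDD8i over DMSO (horizontal axis) with its approximate standard error (bars) for the 45 named ribosomal protein genes of 10 CPM or more, in A431 (circles) and CAL27 (squares), ordered by the A431 change. A431 values run from -1.31 (RPS27L) to 0.48 (RPL22L1), CAL27 values from -0.48 (RPL10A) to 0.50 (RPS21), and most CAL27 points lie to the right of the A431 point of the same gene.

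In CAL27 many of these genes rose under NEDD8i, by small amounts. Of 83 members tested 39 rose and 4 fell at an edgeR adjusted p under 0.05, over a background of 23.2% of genes that rose and 26.4% that fell. The median log2 fold change was 0.13, beside -0.04 over all genes tested, and the quartiles of the members were 0.02 and 0.24. At least 1.2-fold rises numbered 17, and no called member passed 1.5-fold in either direction. Both NEDD8i libraries were above both DMSO libraries in 46 members and below them in 5, and the groups overlapped in 32, beside 35% above and 39.5% below over all genes tested. Of the small subunit genes 19 of 31 rose and RPS9 fell (median 0.18), and of the large subunit genes 19 of 46 rose and 3 fell (median 0.10). With the filter at 1 CPM, 42 of 81 members rose and 4 fell in CAL27, over 31.4% and 34.6% of genes.

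The CAL27 count depended on the scaling. Without scaling factors 23 members rose and 8 fell, against 39 and 4 with TMM factors. Of all genes tested, 19.9% rose and 29.6% fell in that fit without factors. The members' median there was 0.052, beside -0.12 over all genes tested. With the other scalings tried, DESeq2's among them, 40 to 47 members rose and 4 fell. In those fits 23.3% to 24.5% of all genes rose and 24.4% to 26.3% fell. Without the CAL27 DMSO library 2 the falls numbered 2, and without the CAL27 NEDD8i library 1 they numbered 7.

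The largest called rise was that of RPS21, a small protein of the small subunit, with 635 and 657 CPM in the CAL27 NEDD8i libraries, against 434 and 479 CPM in the CAL27 DMSO libraries. Both NEDD8i libraries stood well above both DMSO libraries, and RPS21 rose 1.41-fold, a log2 change of 0.50 ± 0.05 (edgeR adjusted p = 4.55e-07). RPS20, a protein of the small subunit head, had 781 and 885 CPM in the CAL27 NEDD8i libraries, against 589 and 610.4 CPM in the CAL27 DMSO libraries, a log2 change of 0.47 ± 0.05 (edgeR adjusted p = 2.93e-07). RPS15, whose tail reaches the decoding site, had 736 and 759.7 CPM in the CAL27 NEDD8i libraries, against 561 and 573 CPM in the CAL27 DMSO libraries, a log2 change of 0.40 ± 0.04 (edgeR adjusted p = 5.09e-07). These 3 small subunit genes rose at least 1.32-fold. RPL18 of the large subunit had 924 and 982 CPM in the CAL27 NEDD8i libraries, against 740.1 and 682 CPM in the CAL27 DMSO libraries, a log2 change of 0.42 ± 0.05 (edgeR adjusted p = 6.98e-07). RPLP2, an acidic protein of the P stalk that recruits translation factors, had 667 and 681 CPM in the CAL27 NEDD8i libraries, against 499.8 and 517 CPM in the CAL27 DMSO libraries, a log2 change of 0.41 ± 0.04 (edgeR adjusted p = 1.96e-07). RPL26 and its near copy RPL26L1 rose by 0.35 ± 0.09 (edgeR adjusted p = 0.00326) and 0.36 ± 0.09 (edgeR adjusted p = 0.0026) on the log2 scale. RPL22, which binds RNA and is dispensable for general protein synthesis in mice, had 84.8 and 96.1 CPM in the CAL27 NEDD8i libraries, against 73.7 and 69.1 CPM in the CAL27 DMSO libraries, a log2 change of 0.34 ± 0.06 (edgeR adjusted p = 0.000157).

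The fall of RPL10A was the largest of the 4 in CAL27. RPL10A, the protein of the L1 stalk through which spent tRNA leaves the ribosome, had 388 and 411 CPM in the CAL27 NEDD8i libraries, against 560.4 and 553 CPM in the CAL27 DMSO libraries. The NEDD8i libraries lay far below the DMSO libraries, and RPL10A changed by -0.48 ± 0.04 (edgeR adjusted p = 7.02e-08) on the log2 scale. The other 3 falls were smaller: RPS9, a small subunit protein at the mRNA entry, with -0.20 ± 0.05 (edgeR adjusted p = 0.00286), RPL3 with -0.17 ± 0.03 (edgeR adjusted p = 0.000455), and RPL37, a zinc-binding protein of the large subunit, with -0.16 ± 0.04 (edgeR adjusted p = 0.0049). Without the CAL27 DMSO library 2, RPS9 and RPL37 were not called (edgeR adjusted p = 0.112 and 0.135). All 4 genes also fell in A431, where RPL10A changed by -0.14 ± 0.04 (edgeR adjusted p = 0.0146), RPS9 by -0.29 ± 0.05 (edgeR adjusted p = 0.000136) and RPL37 by -0.30 ± 0.04 (edgeR adjusted p = 1.48e-05); the call of RPL10A in A431 was lost without the A431 DMSO library 1 (edgeR adjusted p = 0.103) or the A431 NEDD8i library 1 (edgeR adjusted p = 0.185).

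The response of the 2 lines was compared gene by gene as the CAL27 log2 change minus the A431 log2 change, and it differed for most members. The difference was called in 61 of 83, higher in CAL27 in 59 and lower in 2, RPL10A and RPL7L1, over a background of 14.2% higher and 19.8% lower. The median difference was 0.31, beside -0.04 over all genes, and in 78 of 83 members the CAL27 change lay above the A431 change. Of the large subunit genes 34 of 46 had a called difference upward, of the small subunit genes 24 of 31, and of the paralogs RPS27L alone. Counting by line, 19 members fell in A431 and rose in CAL27, a pattern that 1.7% of all genes tested had. Among them were RPL10, RPL11, RPL13A, RPL23, RPL27A, RPL35 and RPLP1 of the large subunit, and RPS6, RPS15, RPS19, RPS25, RPS26 and RPSA of the small subunit. The A431 call of RPL10 was lost without the A431 DMSO library 1, the A431 NEDD8i library 1 or 2, or the CAL27 DMSO library 1 or 2 (edgeR adjusted p = 0.0544 to 0.278). The CAL27 calls of RPL10 and RPL35 were lost without scaling factors (edgeR adjusted p = 0.263 for RPL10 and 0.503 for RPL35), the CAL27 DMSO library 1 (0.0702 and 0.198) or the CAL27 NEDD8i library 1 (0.222 and 0.206). Without scaling factors the CAL27 calls of RPL23, RPLP1, RPS6, RPS25, RPS26 and RPSA were lost too (edgeR adjusted p = 0.0571 to 0.565). Apart from these 19 members, a further 27 fell in A431 and were not called in CAL27, 19 were not called in A431 and rose in CAL27, 4 fell in both, RPL14 rose in both, RPL22L1 and RPL7L1 rose in A431 alone among the calls, and 11 were called in neither.

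Among members with a called difference the largest was in RPS27L, with 1.23 ± 0.19 (edgeR adjusted p = 7.03e-05). RPS27L had 16.2 and 12.3 CPM in the CAL27 NEDD8i libraries, against 15.1 and 14.9 CPM in the CAL27 DMSO libraries, overlapping groups with a log2 change of -0.07 ± 0.13 (edgeR adjusted p = 0.695) and a 95% interval of -0.34 to 0.19. RPS26 followed among these with a difference of 0.79 ± 0.06 (edgeR adjusted p = 5.06e-08). RPS26 had 287 and 276 CPM in the CAL27 NEDD8i libraries, against 252 and 263 CPM in the CAL27 DMSO libraries, no overlap and a change of 0.13 ± 0.05 (edgeR adjusted p = 0.0244), opposite in sign to that in A431. RPS25 differed by 0.64 ± 0.06 (edgeR adjusted p = 4.66e-07) and RPS15 by 0.64 ± 0.06 (edgeR adjusted p = 3.34e-07). RPS25 had 232 and 227 CPM in the CAL27 NEDD8i libraries, against 198 and 205 CPM in the CAL27 DMSO libraries, and RPS15, which rose in CAL27, had 411 and 388 CPM in the A431 NEDD8i libraries, against 485 and 458 CPM in the A431 DMSO libraries. Both genes thus went down in A431 and up in CAL27, each past the threshold. RPS29 differed by 0.56 ± 0.09 (edgeR adjusted p = 0.000113) and RPL13A, which has a reported role outside the ribosome in silencing interferon-induced mRNAs, by 0.54 ± 0.07 (edgeR adjusted p = 5.65e-06). The CAL27 rise of RPS26 was not called without scaling factors (edgeR adjusted p = 0.396), the CAL27 DMSO library 1 (0.115) or the CAL27 NEDD8i library 1 (0.115), and that of RPS25 was not called without scaling factors (edgeR adjusted p = 0.0629).

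Differences the other way were few. RPL10A differed by -0.34 ± 0.06 (edgeR adjusted p = 0.000412) with the larger fall in CAL27, and RPL7L1 by -0.25 ± 0.08 (edgeR adjusted p = 0.0161), and in CAL27 it had 227 and 219 CPM in the CAL27 NEDD8i libraries, against 219 and 238 CPM in the CAL27 DMSO libraries, overlapping groups. Without the A431 DMSO library 1, the A431 NEDD8i library 2 or the CAL27 DMSO library 2, RPL7L1 lost its call (edgeR adjusted p = 0.0747, 0.112 and 0.15) and RPL10A was then the 1 member with a called difference downward. Among the members with no called difference were RPL5, RPL14 and RPS9. Their 95% intervals were -0.06 to 0.17, -0.06 to 0.22 and -0.05 to 0.23 on the log2 scale. RPS27 and RPL37 had none either, but theirs were called upward with RLE, upper-quartile or no scaling (edgeR adjusted p = 0.00668 to 0.0497). Over the 78 members of 10 CPM or more, the A431 and CAL27 changes had a Pearson r of 0.37 and a Spearman rho of 0.45 across genes, which come from the same libraries and are not independent.

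**Figure D3:**
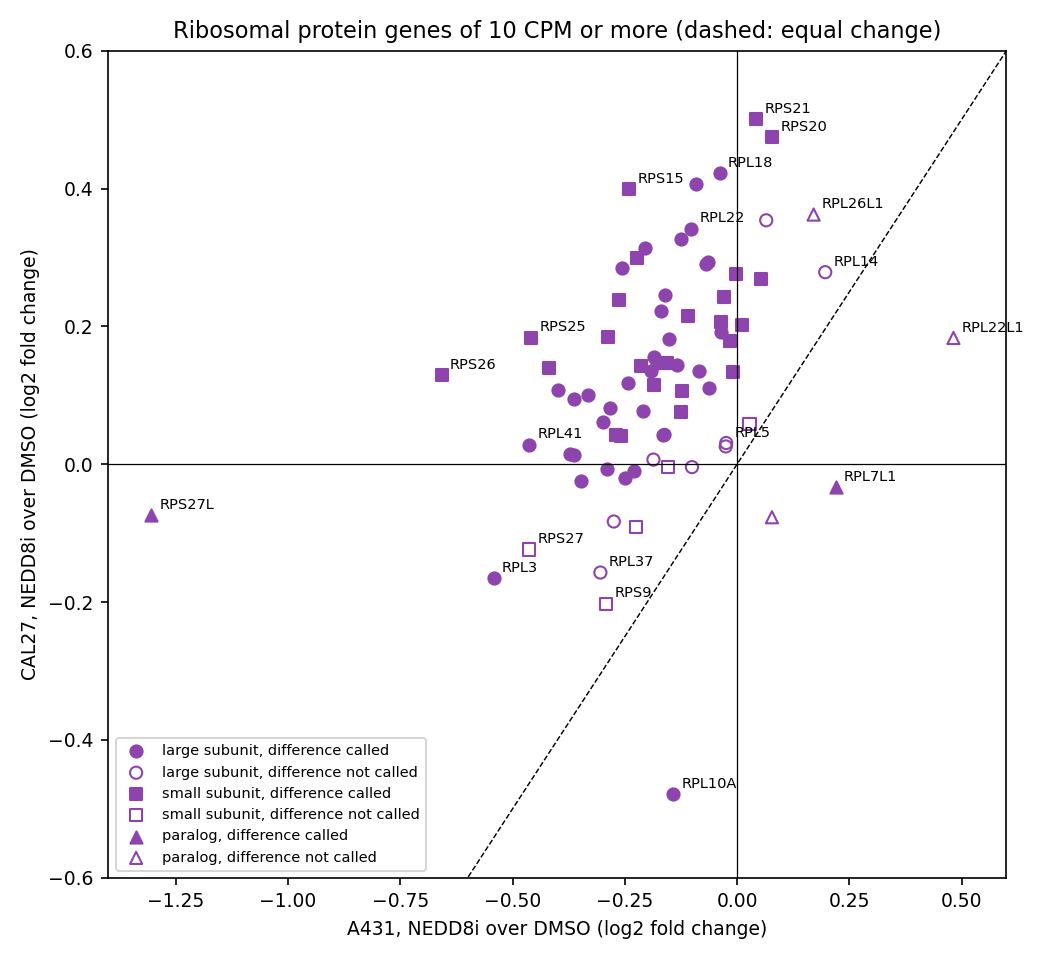
Log2 fold change of NEDD8i over DMSO in CAL27 (vertical) against that in A431 (horizontal) for the 78 ribosomal protein genes of 10 CPM or more; circles are large subunit genes, squares small subunit genes and triangles paralogs, filled where the difference between the lines was called, and the dashed line marks equal change. Nearly all points lie above the dashed line; RPL10A, RPL7L1, RPL22L1 and RPL39L lie below it, and RPS27L stands far to the left at -1.31.

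**Figure D4:**
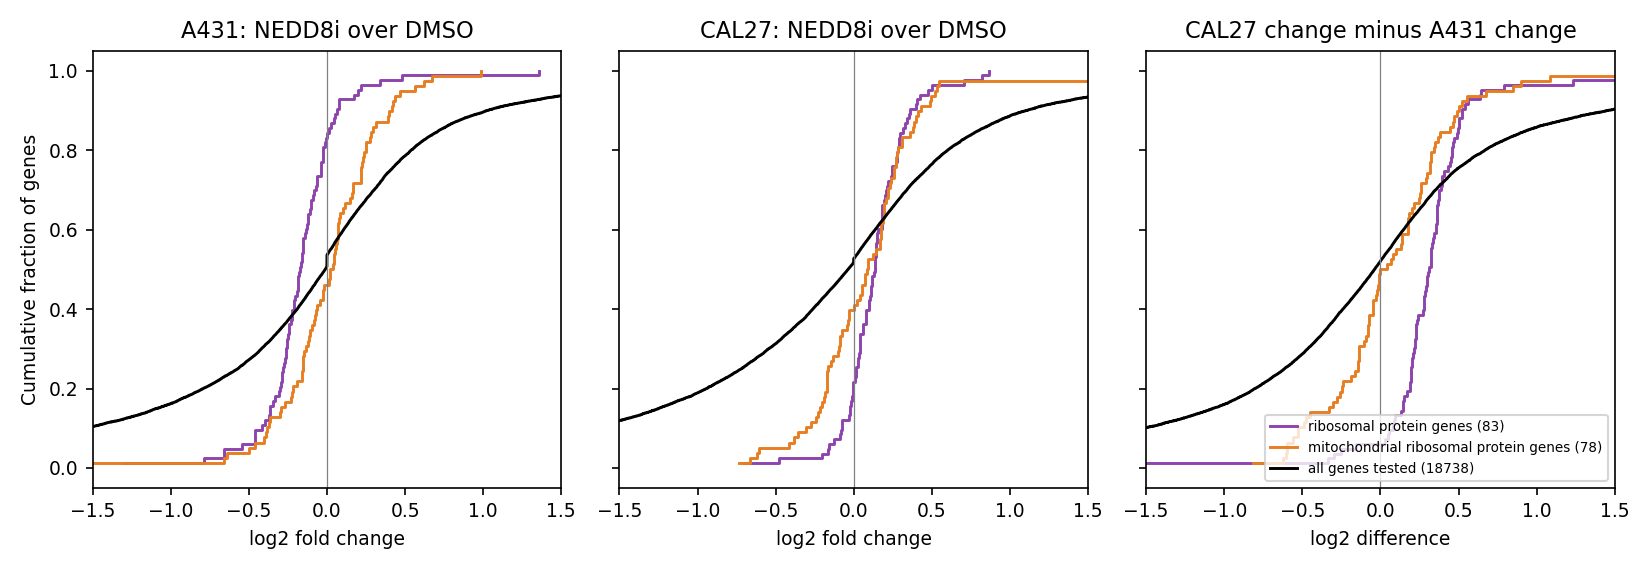
Cumulative fraction of genes (vertical) by log2 fold change in A431, by log2 fold change in CAL27 and by the difference between them (horizontal, cropped at both ends), for the 83 tested ribosomal protein genes, 78 mitochondrial ribosomal protein genes and all 18738 genes tested. The curve of the ribosomal protein genes is steep and left of 0 in A431 (median -0.17) and right of 0 in CAL27 (median 0.13), and that of the difference is centred at 0.31.

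By role, of the proteins of the 5S ribonucleoprotein RPL11 was called in both lines and RPL5 in neither. RPL5 had 792 and 767 CPM in the A431 NEDD8i libraries, against 792 and 792 CPM in the A431 DMSO libraries, with a log2 change of -0.02 ± 0.04 (edgeR adjusted p = 0.69), and 1033 and 956 CPM in the CAL27 NEDD8i libraries, against 982 and 965 CPM in the CAL27 DMSO libraries, with 0.03 ± 0.04 (edgeR adjusted p = 0.578). Neither change was called, and the 95% intervals were -0.10 to 0.06 in A431 and -0.05 to 0.11 in CAL27. Without scaling factors RPL5 was called as a fall in A431 (log2 change -0.13, edgeR adjusted p = 0.0133). RPL11, its partner, had 441 and 468 CPM in the A431 NEDD8i libraries, against 517 and 531 CPM in the A431 DMSO libraries, a log2 change of -0.21 ± 0.05 (edgeR adjusted p = 0.00183). RPL11 had 694 and 669 CPM in the CAL27 NEDD8i libraries, against 524 and 573 CPM in the CAL27 DMSO libraries, a log2 change of 0.31 ± 0.05 (edgeR adjusted p = 2.37e-05), and the difference was 0.52 ± 0.07 (edgeR adjusted p = 9.82e-06). Of 12 members reported to bind MDM2, RPL5 and RPL11 included, 8 fell and 0 rose in A431, beside 50 and 3 of all 83 members and 21.1% and 22.5% of all genes. In CAL27 7 of the 12 rose and 1 fell, beside 39 and 4 of all members and 23.2% and 26.4% of all genes. Those that fell in A431 and rose in CAL27 included RPL23, with -0.15 ± 0.04 and 0.18 ± 0.04, while RPS7 rose in CAL27 alone among the calls (0.27 ± 0.04, edgeR adjusted p = 1.37e-05). The A431 call of RPL23 was lost without the A431 DMSO library 1 (edgeR adjusted p = 0.0535) or the A431 NEDD8i library 1 (0.083), and its CAL27 call without scaling factors (0.0571).

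The 3 genes of the P stalk, RPLP0, RPLP1 and RPLP2, all had negative changes in A431. RPLP0, the base of the stalk, had 3033 and 2947 CPM in the A431 NEDD8i libraries, against 3612 and 3393 CPM in the A431 DMSO libraries, a log2 change of -0.23 ± 0.04 (edgeR adjusted p = 6.65e-05), and RPLP1 changed by -0.19 ± 0.04 (edgeR adjusted p = 0.000593). RPLP2 was not called in A431, with -0.09 ± 0.04 (edgeR adjusted p = 0.0861). With upper-quartile or no scaling this fall was called (edgeR adjusted p = 0.00369 and 0.000682). A filter at 1 CPM (edgeR adjusted p = 0.0384) or DESeq2 (DESeq2 adjusted p = 0.0444) also gave a call. In CAL27 RPLP0 was not called (-0.01 ± 0.04, edgeR adjusted p = 0.858), RPLP1 rose by 0.14 ± 0.04 (edgeR adjusted p = 0.00746) and RPLP2 rose as given above. The difference between the lines was called for all 3, at 0.22 ± 0.05, 0.33 ± 0.05 and 0.50 ± 0.06 on the log2 scale. The CAL27 call of RPLP1 was lost without scaling factors (edgeR adjusted p = 0.26), the CAL27 DMSO library 1 (0.0562) or the CAL27 NEDD8i library 2 (0.053).

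Genes mutated in Diamond-Blackfan anaemia, an inherited failure of red cell production, were 19 of the members. In A431 12 of them fell and 0 rose (median -0.24), and in CAL27 8 rose and 0 fell (median 0.13). Over all 83 members 50 fell in A431 and 39 rose in CAL27, and over all genes 21.1% fell in A431 and 23.2% rose in CAL27, so these counts describe the group and set it apart from no other members. RPS19, the gene most often mutated, had 889 and 857 CPM in the A431 NEDD8i libraries, against 1034 and 1005 CPM in the A431 DMSO libraries, a log2 change of -0.22 ± 0.05 (edgeR adjusted p = 0.000673). RPS19 had 866 and 965 CPM in the CAL27 NEDD8i libraries, against 738 and 751 CPM in the CAL27 DMSO libraries, a change of 0.30 ± 0.05 (edgeR adjusted p = 2.99e-05), again without overlap. RPS6, the target of the S6 kinases downstream of mTOR, changed by -0.19 ± 0.04 (edgeR adjusted p = 0.00208) in A431 and by 0.12 ± 0.04 (edgeR adjusted p = 0.0357) in CAL27. RPSA, a small subunit protein also known as a laminin receptor precursor, changed by -0.16 ± 0.04 (edgeR adjusted p = 0.0023) and 0.15 ± 0.04 (edgeR adjusted p = 0.00299). Some of these calls depended on a library or the scaling: in A431 RPS6 lost its call without the A431 DMSO library 1 (edgeR adjusted p = 0.0555) and RPSA without the A431 NEDD8i library 2 (0.0509), and in CAL27 both lost it without scaling factors (0.565 and 0.14), RPS6 also without any of 5 single libraries (up to 0.371).

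RPS27A, which encodes ubiquitin fused to a small subunit protein, and FAU, which encodes a ubiquitin-like protein fused to RPS30 and falls outside the name rule, rose in CAL27. RPS27A had 931 and 1035 CPM in the CAL27 NEDD8i libraries, against 796 and 827 CPM in the CAL27 DMSO libraries, a log2 change of 0.28 ± 0.05 (edgeR adjusted p = 7.11e-05). FAU had 1033 and 1144 CPM in the CAL27 NEDD8i libraries, against 723 and 753 CPM in the CAL27 DMSO libraries, a change of 0.56 ± 0.05 (edgeR adjusted p = 2.3e-08). The groups did not overlap for either gene. In A431 neither was called: RPS27A had 624 and 631 CPM in the A431 NEDD8i libraries, against 621 and 637 CPM in the A431 DMSO libraries, and FAU had 469 and 445 CPM in the A431 NEDD8i libraries, against 462 and 458 CPM in the A431 DMSO libraries. The difference between the lines was 0.28 ± 0.07 (edgeR adjusted p = 0.00284) for RPS27A and 0.57 ± 0.07 (edgeR adjusted p = 3.68e-06) for FAU. RPL36AL, also outside the rule and a near copy of RPL36A, fell in A431 (-0.37 ± 0.06, edgeR adjusted p = 5.68e-05) and was not called in CAL27 (0.07 ± 0.06, edgeR adjusted p = 0.382). Of the exonic bases of RPS27A, 32.2% lie in exons of other genes, so its reads may be undercounted.

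Each paralog was also set against its canonical gene within a library. The counts of RPS27L per 100 counts of RPS27 were 2.72 and 2.71 in the A431 NEDD8i libraries, against 4.67 and 5.09 in the A431 DMSO libraries, and 4.03 and 3.97 in the CAL27 NEDD8i libraries, against 4.40 and 3.44 in the CAL27 DMSO libraries. The ratio was lower under NEDD8i in A431 and overlapped between the CAL27 groups. For RPL22L1, which RPL22 is known to repress in mouse cells, the counts per 100 of RPL22 were 18.6 and 21.2 in the A431 NEDD8i libraries, against 13.5 and 12.9 in the A431 DMSO libraries, and 41.1 and 33.2 in the CAL27 NEDD8i libraries, against 40.1 and 42.2 in the CAL27 DMSO libraries. In A431 the ratio was higher under NEDD8i, with RPL22 itself at 173 and 166 CPM in the A431 NEDD8i libraries, against 185 and 179 CPM in the A431 DMSO libraries (log2 change -0.10 ± 0.06, edgeR adjusted p = 0.188). That fall of RPL22 was called without scaling factors (edgeR adjusted p = 0.0116) and with upper-quartile scaling (0.032). For RPL39L, a paralog known from testis and cancers, the counts per 100 of RPL39 were 18.1 and 19 in the A431 NEDD8i libraries, against 13.9 and 14.0 in the A431 DMSO libraries; in CAL27 they were 8.59 and 9.32 under NEDD8i and 10.7 and 9.48 under DMSO. In A431 RPL39 fell (-0.33 ± 0.08, edgeR adjusted p = 0.00235) while RPL39L was not called (0.08 ± 0.08, edgeR adjusted p = 0.496).

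For RPL7L1 the counts per 100 of RPL7 were 52.2 and 56.5 in the A431 NEDD8i libraries, against 40.2 and 43.2 in the A431 DMSO libraries, and 24.7 and 23.0 in the CAL27 NEDD8i libraries, against 24.7 and 25.5 in the CAL27 DMSO libraries. RPL26L1 had 306 and 285 counts per 100 of RPL26 in the A431 NEDD8i libraries and 289.8 and 258 in the A431 DMSO libraries, which overlapped, and 119 and 104 under NEDD8i and 113 and 108 under DMSO in CAL27. Ratios of this kind cannot be set between pairs, because reads shared with near copies were dropped and each gene loses a different part. RPL3L, the striated muscle paralog of RPL3, had 4 to 25 counts in a library. RPL10L, a testis gene, had 0 counts in all 8 libraries. If counts were independent, counting error alone would allow up to 0.0480 to 0.0612 CPM in a library. Mates were counted singly, so the true bound may be higher.

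**Figure D5:**
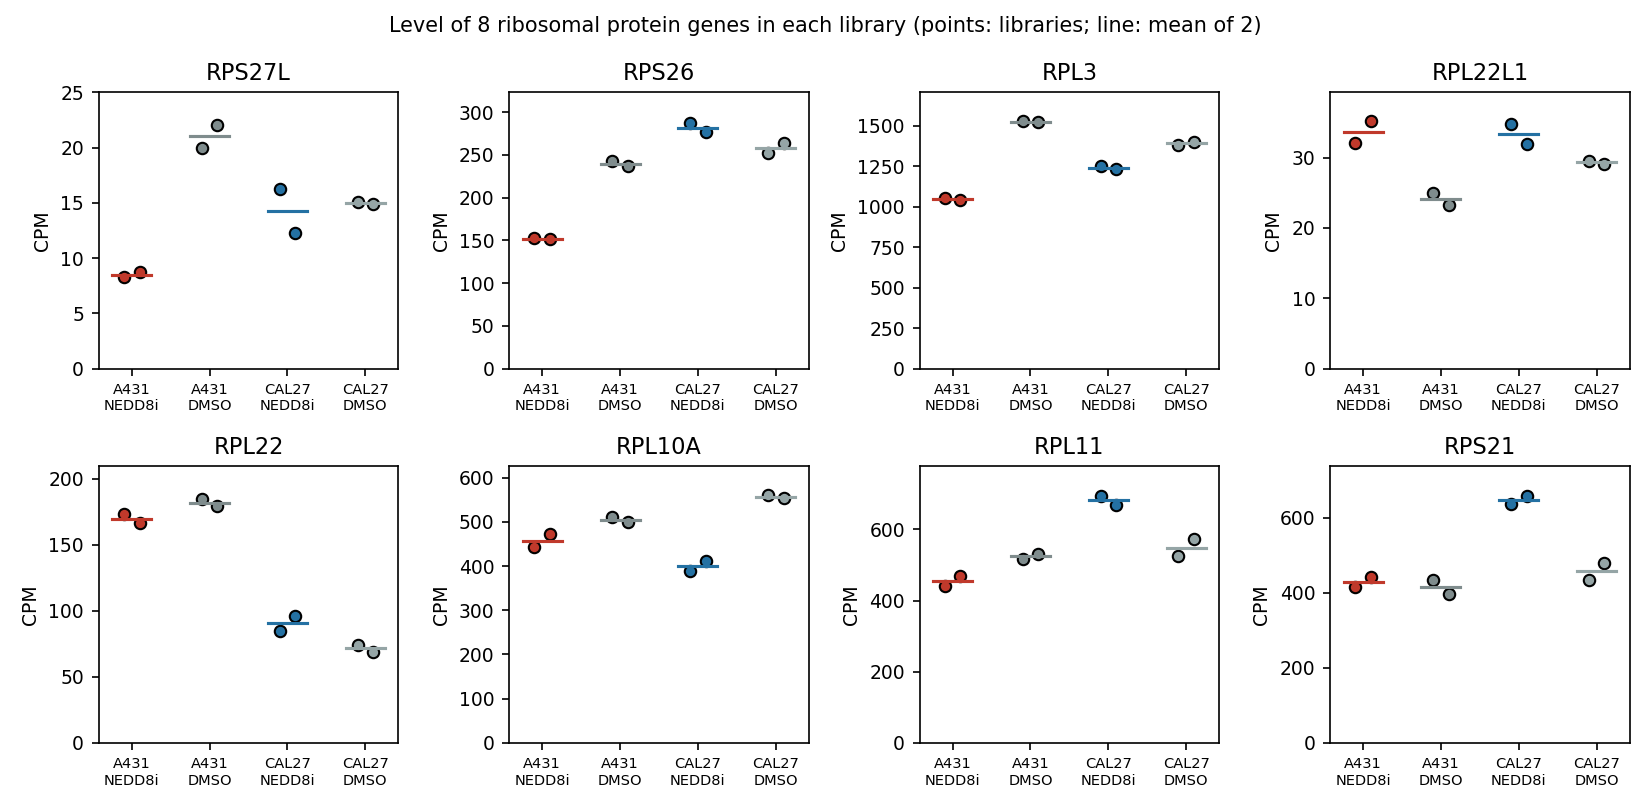
Level (CPM, vertical axes from 0) of 8 ribosomal protein genes in each of the 8 libraries; points are libraries and lines are group means of 2. RPS27L, RPS26 and RPL3 are lower in A431 NEDD8i than in A431 DMSO, RPL22L1 is higher in A431 NEDD8i, RPL22 is lower in both CAL27 groups than in A431, RPL10A is lowest in CAL27 NEDD8i, and RPL11 and RPS21 are highest in CAL27 NEDD8i.

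Under DMSO the 2 lines differed in single members, with no common direction. Between CAL27 DMSO and A431 DMSO, 33 members were higher in CAL27 and 32 lower, over a background of 29.9% and 29% of all genes, with a median log2 difference of 0.05. RPL9 had 802 and 875 CPM in CAL27 under DMSO, against 285 and 282 CPM in A431 under DMSO, a 2.96-fold higher level in CAL27 (log2 1.56 ± 0.05, edgeR adjusted p = 1.39e-14). RPS3, at the entry of the mRNA channel, had 2579 and 2703 CPM in CAL27 under DMSO, against 927 and 933 CPM in A431 under DMSO (log2 1.51 ± 0.04, edgeR adjusted p = 1.15e-14). RPL26 (1.4 ± 0.10), RPL7A (1.05 ± 0.04), RPL35 (1.03 ± 0.04) and RPL21 (1.0 ± 0.04) were also higher in CAL27 on the log2 scale, each past the threshold. RPL22 had 73.7 and 69.1 CPM in CAL27 under DMSO, against 185 and 179 CPM in A431 under DMSO, a 2.55-fold lower level in CAL27 (log2 -1.35 ± 0.06, edgeR adjusted p = 4.26e-12). RPL39L (-0.86 ± 0.09), RPLP1 (-0.66 ± 0.04), RPS3A (-0.60 ± 0.04) and RPL27A (-0.55 ± 0.04) were lower too, and so was RPL17 (-0.69 ± 0.22), whose call was lost without the A431 DMSO library 2 (edgeR adjusted p = 0.0968) or the CAL27 DMSO library 1 (0.127). Differences in gene dose between the lines were not tested.

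The changes were also set against coding length and the TOP tract. Over the 78 members of 10 CPM or more, with a median coding length of 463.5 bases, Spearman's rho of coding length with the log2 change was 0.15 in A431 and -0.06 in CAL27. The shorter 39 had a median change of -0.19 in A431 and 0.14 in CAL27, and the longer 39 had -0.16 and 0.11. Other short genes were near 0 in A431 and close to the members in CAL27: 518 genes of no greater coding length and 10 CPM or more had medians of -0.02 in A431 and 0.15 in CAL27. Of the 45 such members with a TOP tract, 32 fell and 2 rose in A431 (median -0.19), and 24 rose and 1 fell in CAL27 (median 0.14). Of the 18 without 1 at an annotated start, 11 fell and 1 rose in A431 (median -0.16), and 7 rose and 2 fell in CAL27 (median 0.09). Of all 83 members tested, 50 fell and 3 rose in A431, and 39 rose and 4 fell in CAL27. Of all genes tested, 21.1% fell and 22.5% rose in A431, and 23.2% rose and 26.4% fell in CAL27. Whether the tract bears on the change was not tested.

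Members with near copies were counted only from the reads that are theirs alone. By symbol 78 members have pseudogenes, 1599 in all, of which 834 had a count; together they held 1.4% to 2.82% as many counts as the members. Their share of all counts was 0.0649% and 0.0667% in the A431 NEDD8i libraries, against 0.0813% and 0.0818% in the A431 DMSO libraries, and 0.160% and 0.180% in the CAL27 NEDD8i libraries, against 0.158% and 0.145% in the CAL27 DMSO libraries. Pseudogenes of RPS2 alone held 32155 to 40929 counts in a CAL27 library, of 80087 to 107104 over all these pseudogenes. In an A431 library they held 2282 to 3070, of 31815 to 46625. With the counts of all pseudogenes added to their parent genes, 50 members fell and 3 rose in A431 and 43 rose and 4 fell in CAL27. In 14 members more than 10% of the exonic bases lie in exons of other genes, among them RPL17 (61.3%), RPS10 (58.0%) and RPL10 (51.9%). Among the other 69 tested, 45 fell and 3 rose in A431, and 32 rose and 4 fell in CAL27. Levels under 10 CPM were found in 5 members, among them RPL17, RPL36A, RPS10 and RPL3L, named for that after their values were seen; RPS10 had 9 and 16 counts in the A431 NEDD8i libraries, against 17 and 25 in the A431 DMSO libraries, and none of the 5 was called in either line.

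Other genes of translation were counted in the same way, over the background of 22.5% of all genes that rose and 21.1% that fell in A431 and 23.2% that rose and 26.4% that fell in CAL27. Of 19 tested genes with TOP mRNAs that encode no canonical ribosomal protein of the rule, 1 rose and 7 fell in A431 (median -0.01), and 9 rose and 1 fell in CAL27 (median 0.06); 12 of the 13 in the table of starts carried the tract. EIF4B, a cofactor of the helicase EIF4A, fell in A431 (-0.30 ± 0.04, edgeR adjusted p = 1.7e-05), and EIF3E, an EIF3 subunit, rose (0.17 ± 0.04, edgeR adjusted p = 0.00158), though not without scaling factors (edgeR adjusted p = 0.146). In CAL27 NAP1L1, a histone chaperone, rose (0.44 ± 0.04, edgeR adjusted p = 2.08e-07), and NPM1, a nucleolar chaperone, fell (-0.18 ± 0.04, edgeR adjusted p = 0.00042). Of 30 initiation, elongation and termination factors, 18 rose and 5 fell in A431 (median 0.30), and 21 rose and 5 fell in CAL27 (median 0.27). EIF1, which guards the choice of the start codon, rose in A431 (0.72 ± 0.04, edgeR adjusted p = 6.85e-11) and in CAL27 (1.35 ± 0.04, edgeR adjusted p = 1.25e-14). EIF6, which keeps the large subunit from joining too early, rose by 0.71 ± 0.05 in A431 and 0.67 ± 0.05 in CAL27, and EIF4A2 changed by -0.94 ± 0.05 and -1.14 ± 0.05, each past the threshold. EIF5, which acts with EIF1 at the start codon, fell in A431 (-0.35 ± 0.04, edgeR adjusted p = 1.49e-06) and rose in CAL27 (0.73 ± 0.04, edgeR adjusted p = 9.51e-11).

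Of 14 chaperones and importers of ribosomal proteins, 9 rose and 3 fell in A431, and 10 rose and 1 fell in CAL27. Over all genes 22.5% rose and 21.1% fell in A431, and 23.2% rose and 26.4% fell in CAL27. TNPO1, an import receptor, had 604 and 583 CPM in the A431 NEDD8i libraries, against 200.2 and 200.2 CPM in the A431 DMSO libraries, a log2 change of 1.57 ± 0.04 (edgeR adjusted p = 8.91e-15), and 780.3 and 769.8 CPM in the CAL27 NEDD8i libraries, against 274 and 287 CPM in the CAL27 DMSO libraries, a change of 1.47 ± 0.04 (edgeR adjusted p = 1.35e-14). BCCIP, the chaperone of RPL23, rose by 0.71 ± 0.05 in A431 and 0.95 ± 0.05 in CAL27. TSR2, the chaperone of RPS26, fell in A431 (-0.28 ± 0.07, edgeR adjusted p = 0.00248) and rose in CAL27 (0.29 ± 0.07, edgeR adjusted p = 0.00178), with a difference of 0.56 ± 0.09 (edgeR adjusted p = 0.000157), the same signs as RPS26. HEATR3, which imports RPL5, fell in both lines, with log2 changes of -0.47 ± 0.12 (edgeR adjusted p = 0.00347) in A431 and -1.5 ± 0.12 (edgeR adjusted p = 8.29e-09) in CAL27.

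Among 16 genes of mTOR signalling and TOP control, 7 rose and 4 fell in A431, and 6 rose and 7 fell in CAL27. The shares over all genes were 22.5% that rose and 21.1% that fell in A431, and 23.2% and 26.4% in CAL27. MYC, a transcription factor known to raise transcription of ribosomal protein genes, rose in A431 and fell in CAL27. MYC had 232 and 241 CPM in the A431 NEDD8i libraries, against 89.3 and 79.9 CPM in the A431 DMSO libraries, a log2 change of 1.48 ± 0.06 (edgeR adjusted p = 3.77e-12). MYC had 85.5 and 88.1 CPM in the CAL27 NEDD8i libraries, against 211 and 235 CPM in the CAL27 DMSO libraries, a change of -1.36 ± 0.06 (edgeR adjusted p = 6.65e-12). SESN2, an inhibitor of mTOR under amino acid stress, rose in A431 (1.66 ± 0.08, edgeR adjusted p = 4.19e-11) and in CAL27 (1.88 ± 0.09, edgeR adjusted p = 1.01e-11), and so did EIF4EBP1, a translational repressor that mTOR inactivates (0.94 ± 0.05 and 0.76 ± 0.06). TSC2, an inhibitor of mTOR upstream of RHEB, fell in A431 (-0.40 ± 0.07, edgeR adjusted p = 0.000124) and in CAL27 (-1.54 ± 0.07, edgeR adjusted p = 1.01e-11).

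Besides MDM2 itself, 2 more genes were set beside RPS27L. CDKN1A, a cell cycle inhibitor, had 196 and 200.0 CPM in the A431 NEDD8i libraries, against 41.7 and 39 CPM in the A431 DMSO libraries, and 225 and 223 CPM in the CAL27 NEDD8i libraries, against 30.6 and 30.8 CPM in the CAL27 DMSO libraries. MDM2 rose in A431 (0.77 ± 0.07, edgeR adjusted p = 7.6e-08) and in CAL27 (0.28 ± 0.07, edgeR adjusted p = 0.00247). RPS27L and ZMAT3 fell in A431, ZMAT3 with a log2 change of -0.74 ± 0.10 (edgeR adjusted p = 1.36e-05), and neither was called in CAL27 (ZMAT3 -0.06 ± 0.10, edgeR adjusted p = 0.638).

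The ribosome of mitochondria has proteins of its own, encoded by 78 tested nuclear genes, which were counted over the same background. In A431 16 rose and 12 fell (median 0.03), and in CAL27 29 rose and 12 fell (median 0.09). In A431 neither count exceeded the share of all genes, 22.5% that rose and 21.1% that fell, and in CAL27 the shares of all genes were 23.2% and 26.4%. The difference between the lines was called upward in 19 and downward in 13, with a median of 0.02, beside 0.31 for the 83 cytosolic ribosomal protein genes. They took 0.452% and 0.453% of the counts in the A431 NEDD8i libraries, against 0.475% and 0.462% in the A431 DMSO libraries, and 0.530% and 0.531% in the CAL27 NEDD8i libraries, against 0.516% and 0.521% in the CAL27 DMSO libraries. No test set the 2 families against each other.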

How the data were processed

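RNA was measured in 8 libraries, 2 for each of A431 and CAL27 under NEDD8i or DMSO. The labels' protocols name the QuantSeq FWD kit, which reads the 3' ends of polyadenylated RNA. The authors deposited raw read counts for each gene. Per the submitters' processing notes, the genome was GRCh38 and the tools include STAR (no version given) and DESeq2. Per the file headers, featureCounts 2.0.8 took a filtered alignment and counted over exons of the basic GENCODE 39 annotation, in paired-end mode but not by fragment. Mates are thus counted singly, and counts are not independent molecules. Strand was ignored, and reads with several alignments or over more than 1 gene were dropped, per the file headers, so members with near copies, overlapping or antisense genes are undercounted or uncertain. The floor of 3 counts covers counting error only and takes counts as independent.

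Symbols came from a table of gene names (61415 of 61533 identifiers matched), gene types and coding lengths from GENCODE 29, and start sites from RefSeq (GRCh38.p14). Where a gene had several annotated starts, that with the longest tract was used. Coordinates of genes are those of the count tables.

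The count test was that of edgeR 4.0.16 (R 4.3.3), with TMM factors, filterByExpr (18738 genes kept), 1 quasi-likelihood fit with a mean for each of the 4 groups (4 residual and 12.3 prior degrees of freedom, common biological coefficient of variation 0.0852), and contrasts of NEDD8i over DMSO in each line, the CAL27 change minus the A431 change, and CAL27 DMSO over A431 DMSO. The Benjamini-Hochberg adjustment ran over the 18738 genes, and calls are at an adjusted p under 0.05. CPM on the TMM scale were computed here. The standard error is the log2 change over the square root of F, and 95% intervals are normal intervals from it, which reflect the spread between libraries. The fit was tested on simulated data. Within a group, the chi-square of the counts over its degrees of freedom was 5.31 to 10.4 (r of log2 CPM 0.981 to 0.986), far above sampling noise, and each library was kept as its own replicate.

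The members and the gene lists were chosen with earlier results of these data known, so no set test was run and lists are described by counts and medians. Named members are the up to 8 called rises and falls with the largest log2 change in each line, the up to 6 each way in the difference and between lines, and members with a known special role; from other lists, up to 3 each way and line. Some genes are not reported here. Alternatives were RLE, upper-quartile or no scaling, TMM without the members, no filter or a filter at 1 CPM, DESeq2 1.42.0, fits on the libraries of a contrast alone, a replicate block, halved counts, pseudogene counts added to their parents, an adjusted p under 0.01, shares without the mitochondrial genome, and leaving out each library.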

Additional observations from a re-analysis of the deposited data

Results flagged for a closer look

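Each of these results was singled out because the test of the difference itself, the CAL27 log2 change minus the A431 log2 change, passed an edgeR adjusted p under 0.05. Over all members tested this held for 59 with the higher change in CAL27 and for 2 with the lower change, over backgrounds of 14.2% and 19.8% of all genes. Among the named members with a called difference the largest, on the log2 scale, were those of RPS27L (1.23), RPS26 (0.79), RPS25 (0.64), RPS15 (0.64), RPS29 (0.56), RPL13A (0.54), RPS19 (0.52), RPL11 (0.52), RPL13 (0.51), RPLP2 (0.50), RPL41 (0.49), RPL18 (0.46) and RPS21 (0.46). They were followed by RPL22 (0.44), RPL39 (0.43), RPS20 (0.40), RPL27A (0.39), RPL3 (0.38), RPL35 (0.36), RPL21 (0.36), RPL23 (0.33), RPLP1 (0.33), RPSA (0.30) and RPS6 (0.30). The smaller ones were RPS27A (0.28), RPL10 (0.28), RPS3 (0.23), RPL7A (0.23), RPLP0 (0.22), RPS7 (0.22), RPL7 (0.21), RPS3A (0.19), RPL9 (0.17) and RPS4X (0.14). The differences downward were RPL10A (-0.34) and RPL7L1 (-0.25). Some of these calls were lost when 1 library was left out. For RPL7L1 this was so without A431 DMSO library 1, A431 NEDD8i library 2 or CAL27 DMSO library 2 (edgeR adjusted p = 0.0747 to 0.15). For RPL9 this was so without A431 DMSO library 1, A431 NEDD8i library 1, A431 NEDD8i library 2, CAL27 DMSO library 1 or CAL27 NEDD8i library 1 (edgeR adjusted p = 0.074 to 0.185). For RPS3A this was so without A431 DMSO library 1, A431 NEDD8i library 1, A431 NEDD8i library 2, CAL27 DMSO library 1 or CAL27 NEDD8i library 2 (edgeR adjusted p = 0.0689 to 0.109). For RPS4X this was so without A431 DMSO library 1, A431 NEDD8i library 1, A431 NEDD8i library 2, CAL27 DMSO library 1 or CAL27 DMSO library 2 (edgeR adjusted p = 0.0513 to 0.0938). With counts halved, the calls of RPL9 (edgeR adjusted p = 0.0543) and RPS4X (0.0531) were lost too, and with upper-quartile scaling that of RPL7L1 (0.0762).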

How the results depend on the processing

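The members' medians kept their direction under all alternatives run. Without scaling factors the members' median was -0.27 in A431 (1 member rose) and 0.13 between the lines. It was 0.052 in CAL27 (23 rose, 8 fell, over 19.9% and 29.6% of all genes). With upper-quartile scaling it was -0.24 in A431, 0.39 for the difference (1 member lower) and 0.092 between the lines. With RLE size factors and with DESeq2 it was 0.17 in CAL27 and 0.35 for the difference, and with the CAL27 libraries alone 0.16. At an adjusted p under 0.01, 1 member had a lower difference. With the filter at 1 CPM the difference was higher in 64 of 81 members and lower in 2, over 20.8% and 26.4% of genes. When single libraries were left out, with the lone library of the group taken to vary like the other groups, the median ran from -0.19 to -0.14 in A431, 0.12 to 0.18 in CAL27, 0.28 to 0.36 for the difference and 0.012 to 0.069 between the lines, falls in CAL27 numbered 2 to 7, and lower differences 1 to 2. With pseudogenes added the members held 4.69% of the counts in A431 NEDD8i, 6.53% in CAL27 NEDD8i and 6.35% in CAL27 DMSO, and without the mitochondrial genome 4.72% in A431 NEDD8i, 5.81% in A431 DMSO, 6.43% in CAL27 NEDD8i and 6.31% in CAL27 DMSO. The cause of these shifts was not tested, except that scaling factors act on all genes alike.

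The replicate numbers did not pair the samples: deviations of same-numbered libraries correlated with r from -0.03 to 0.02 over all genes, and over the members with r from -0.61 to 0.54, positive for 2 of the 6 pairs of groups and negative for 4. With the number as a block, 3 members rose and 51 fell in A431, 41 rose and 4 fell in CAL27, 60 had a higher and 2 a lower difference, and between the lines 32 were higher and 32 lower. Of 272 results on single named genes, members and others, 199 kept their call under every alternative. Over 5096 recomputed values 135 lost and 113 gained a call, and the 95 sign changes concerned values called in neither setting. Depth limited 5 members under 10 CPM, among them RPL17, RPL36A, RPS10 and RPL3L, and 2 libraries a group limit every comparison.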
